A study of Capra hircus with 8 samples.

Results

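The 7 genes SOX9, LHX2, CD34, NFATC1, TCF7L1, GAS1 and ITGA6 are used in hair biology as markers or regulators of follicle stem cells. They were taken by their symbol in the deposited gene count table, where 7 of 7 were found among 18815 genes, 1 entry each. All 7 had enough reads to be tested, as had 14085 genes in all. Skin RNA came from cashmere goats (4 libraries) and milk goats (4 libraries). Each breed has a single library for each of the months 3, 6, 9 and 12. The study's title names seasonal hair follicle cycling. The labels give the month as an age and do not say how many animals entered a library. No treatment, genotype or sex is given. The SDs below are therefore the spread over the months of a breed. The SEs of the main model, which has a term for month, rest on how the breed difference varied from month to month. There is no replicate of a single breed and month.

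Follicle stem cells reside in the bulge, a niche of the outer root sheath, and in the hair germ beneath it. During rest they are held quiescent, and at the start of growth they give rise to the matrix cells whose offspring build the hair shaft and the inner root sheath. In the mouse, SOX9 specifies these cells, LHX2 and NFATC1 help keep them quiescent, TCF7L1 represses Wnt target genes in them, and CD34 and ITGA6 are the surface proteins by which they are sorted. None of the 7 genes is expressed by these cells alone. CD34 also marks endothelium and dermal fibroblasts, GAS1 and NFATC1 have dermal or vascular expression too, and ITGA6 lines the whole basal epidermis. In skin RNA of this kind, fewer cells of a type and less RNA per cell cannot be told apart.

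Library totals were 7480053 to 8718429 reads in cashmere goats and 11333734 to 13899750 reads in milk goats. The 7 genes were covered by 139 to 3133 reads per library, against a limit of 3 reads that a count of 0 allows. Basal epidermal keratins were abundant, with KRT5 at 8820 ± 1250 CPM in cashmere goats and 7899 ± 1609 CPM in milk goats (SD over 4 months; CPM is reads per 1000000, scaled by TMM, a correction for RNA composition). KRT15, a common bulge keratin, was not found by symbol and was not analysed here. The libraries of a breed differ strongly in hair shaft RNA. Of 17 hair shaft keratins looked for, 8 had a symbol in the table. They summed to 784, 2024, 1995 and 1542 CPM at months 3, 6, 9 and 12 in cashmere goats, and to 239, 1416, 2337 and 68.3 CPM at those months in milk goats.

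Set against these swings, the 7 stem cell genes had small ranges. The range over the 4 months, highest minus lowest log2 CPM, had a median over the 7 genes of 0.51 in cashmere goats, a 1.43-fold span. In milk goats it was 0.90, a 1.86-fold span. Over the 8 hair shaft keratins the same median was 1.47 in cashmere goats, a span of 2.77-fold. In milk goats it was 5.19, or 36.5-fold. In milk goats the largest range of a stem cell gene was 1.31 and the smallest of a shaft keratin 3.91, so 7 of 7 lay below every shaft keratin, also when any 1 of the 4 months was left out. In cashmere goats the margin was small, with 0.86 for the largest stem cell gene range and 0.98 for the smallest shaft keratin range. There the separation rested on the early months. Without the cashmere library of month 3 the medians were 0.40 for stem cell genes and 0.69 for shaft keratins, and 0 of 7 lay below every shaft keratin, and without that of month 6 it was 2 of 7.

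The small range was not particular to stem cell genes. All tested genes had a median range of 0.54 in cashmere goats and 0.74 in milk goats, so the 7 genes stood near it in cashmere goats and above it in milk goats. The milk goat median of 0.90 was 0.39 without the milk library of month 9 and 0.53 without that of month 12. By TMM-scaled CPM, ITGA6 was among the most level genes of the table in milk goats. There 1.24% of tested genes had a smaller range, and 10.8% did in cashmere goats. In the second count table its milk goat range was 0.70 in place of 0.14. In the authors' FPKM of the first-table counts it ran from 20.2 to 26.7 in milk goats, and SOX9 from 22.4 to 26.4. NFATC1 had the widest range of the 7 in both breeds in the first table, though not in the second, and 75.9% of genes in cashmere goats and 80.9% in milk goats had a smaller one. The ranges of 1 library per month have no test, and they include counting error of about 0.14 log2 units in cashmere goats and 0.12 in milk goats (median half-width of the exact 95% binomial interval over the 7 genes).

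**Figure D1:**
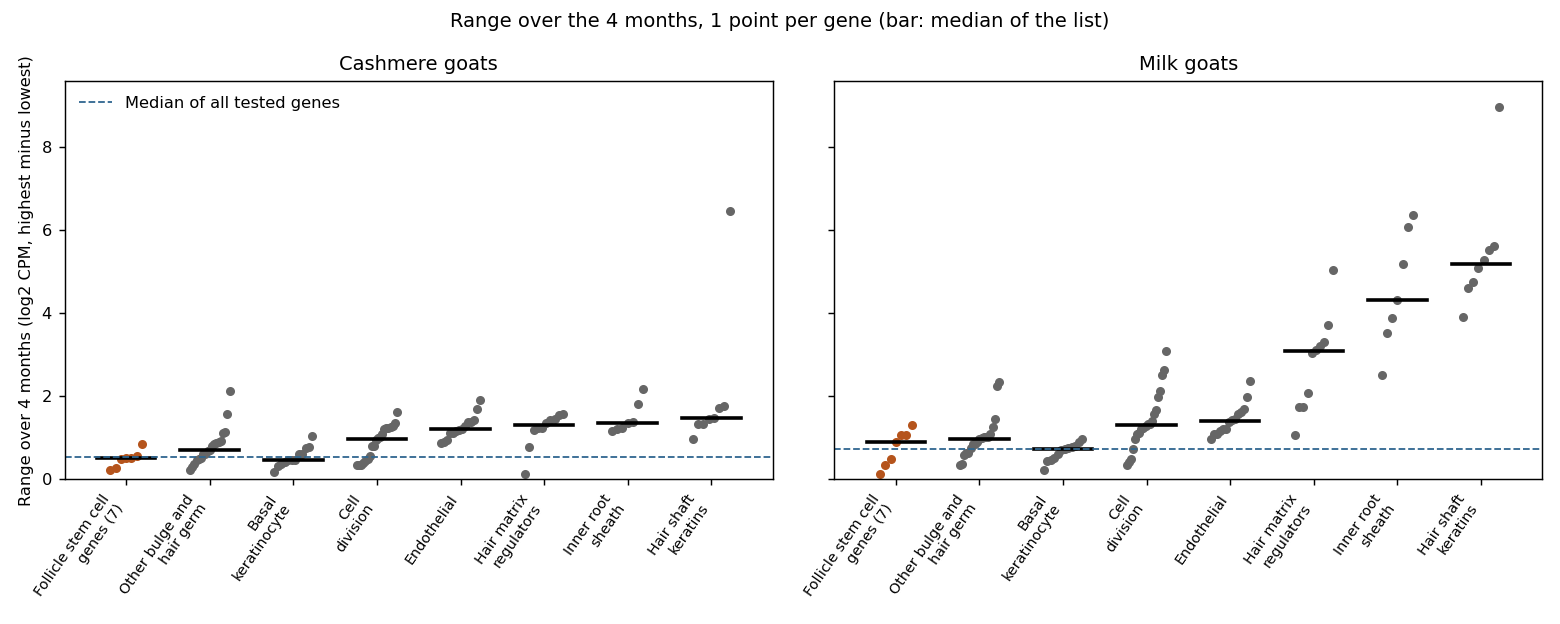
Range over the 4 months (highest minus lowest log2 CPM, vertical axis) of each tested gene in 8 gene lists, for cashmere goats (left) and milk goats (right). Each point is 1 gene, the bar is the median of its list and the dashed line the median of all tested genes; the stem cell genes (orange) have medians of 0.51, near that line, and 0.90, above it (0.74), while hair shaft keratins reach medians of 1.47 and 5.19.

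SOX9, a transcription factor of the outer root sheath and bulge, had the clearest difference between the breeds. It stood at 229, 243, 321 and 258 CPM at months 3, 6, 9 and 12 in cashmere goats, and at 161, 170.4, 203 and 206 CPM at those months in milk goats. Cashmere goats were above milk goats in 4 of 4 months and the 2 sets of values did not overlap, which held for 6.46% of all tested genes in that direction; a higher value in 4 of 4 months, with or without overlap, held for 19.6%. In the other direction 8.02% of all genes were without overlap and 0 of the 7 were. The difference was 1.42-fold (log2 fold change 0.50 ± 0.14 SE) and did not pass the threshold in edgeR's quasi-likelihood test (adjusted p = 0.0798, unadjusted p = 0.00758). With DESeq2 on the same counts it passed (log2 fold change 0.49, adjusted p = 0.00839), as it did with limma on log2(FPKM + 1), at 0.69 (adjusted p = 0.0328), where the median of all genes was itself shifted by 0.16 towards cashmere goats. More of the 14085 genes passed in these fits, 1691 with DESeq2 and 1374 with limma, against 675 in edgeR. Over all alternatives the log2 fold change lay between 0.45 and 0.81 and the adjusted p between 0.00839 and 0.298. The ratio of cashmere to milk goats was 1.42, 1.43, 1.58 and 1.25 in the 4 months in turn. In each of them the exact 95% binomial interval, which covers counting error only, of the log2 ratio lay above 0 (0.24 to 0.41 at month 12).

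LHX2, a LIM homeodomain factor of hair germ and bulge, had its high and low months in common between the breeds in the first count table. It had 20.0, 26.5, 24.2 and 18.3 CPM at months 3, 6, 9 and 12 in cashmere goats and 19.5, 26.4, 25.5 and 14.1 CPM in milk goats. The value of month 6 was the highest and that of month 12 the lowest in each breed, which in cashmere goats did not hold in the second count table. Month 12 against month 6 gave a log2 fold change of -0.72 ± 0.20 SE over both breeds (edgeR, unadjusted p = 0.00890, adjusted p = 0.583). The breed difference was 0.08 ± 0.14 (adjusted p = 0.745), and it was -0.01 without the cashmere library of month 12 and -0.034 without the milk library of that month. Here and below, leaving out either library of a month takes that month out of the breed estimate, so such paired values are not separate checks. Counting error is larger here than for the other genes, since LHX2 had 139 to 343 reads per library.

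TCF7L1, a Wnt-pathway transcription factor that represses its targets together with Groucho proteins, was level in CPM apart from 1 library. It had 33.7, 38.3, 40.3 and 33.3 CPM in cashmere goats at months 3, 6, 9 and 12, and 33.5, 24.6, 34.8 and 34.1 CPM in milk goats. The milk library of month 6 was the lowest of all 8, and the ratio of cashmere to milk goats was 1.56 in that month and 1.01, 1.16 and 0.98 at months 3, 9 and 12. In the authors' FPKM of the same counts the milk goat values were 6.68, 4.88, 5.25 and 5.97. There month 6 was still the lowest but lay close to month 9. The fitted breed difference was 0.21 ± 0.15 SE on the log2 scale (edgeR, adjusted p = 0.408), and 0.065 without the cashmere or 0.029 without the milk library of month 6.

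ITGA6 is the integrin alpha chain that anchors basal keratinocytes to the basement membrane. In CPM of the first count table it had the smallest range of the 7 in each breed. Its levels were 242, 247, 284 and 253 CPM at months 3, 6, 9 and 12 in cashmere goats and 255, 237, 254 and 232 CPM in milk goats. The highest month stood 1.18-fold above the lowest in cashmere goats, and 1.10-fold above it in milk goats. In FPKM of the same counts the milk goat values ran from 20.2 to 26.7, a wider span than the 22.4 to 26.4 of SOX9. The breed difference was 0.07 ± 0.14 SE (edgeR, adjusted p = 0.783). Its main partner chain ITGB4, with which it forms the hemidesmosome integrin, stood at -0.09 ± 0.15 (adjusted p = 0.752), and ITGB1, the other beta chain it pairs with, at 0.15 ± 0.17 (adjusted p = 0.591).

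CD34, a sialomucin of the cell surface, was highest at month 3 in both breeds. It had 125, 105, 87.8 and 84.0 CPM at months 3, 6, 9 and 12 in cashmere goats, and 150.2, 116, 70.9 and 129 CPM in milk goats. In cashmere goats each later library was below the one before it. In milk goats month 9 was the lowest and month 12 stood between months 6 and 3. In the second count table month 9 was also the lowest in milk goats, but month 12 lay below month 6 (108, 77.3, 38.5 and 58.5 CPM). Month 9 against month 3 gave -0.78 ± 0.24 SE over both breeds (edgeR, unadjusted p = 0.0129, adjusted p = 0.130). The breed difference was -0.18 ± 0.17 (adjusted p = 0.528), with -0.035 and -0.058 without the cashmere or the milk library of month 12 and -0.34 and -0.33 without that of month 9. Its sign was positive with limma on log2(FPKM + 1), at 0.030, and in the second count table, at 0.31. The median over all genes in that limma fit was 0.16.

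GAS1, a membrane-anchored co-receptor of hedgehog ligands first known as a growth arrest gene, had 114, 122, 85.3 and 86.2 CPM at months 3, 6, 9 and 12 in cashmere goats and 119, 115, 73.5 and 155 CPM in milk goats. Months 9 and 12 were low in cashmere goats, whereas in milk goats month 9 was the lowest and month 12 the highest. The breed difference of -0.15 ± 0.19 SE (edgeR, adjusted p = 0.655) rested on month 12. It was 0.080 without the cashmere library of that month and 0.06 without the milk library. With limma on log2(FPKM + 1) and all 8 libraries it was 0.057, below the median of 0.16 over all genes in that fit.

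NFATC1, a calcium-responsive transcription factor activated by calcineurin, had 54.8, 44.3, 45.6 and 30.0 CPM at months 3, 6, 9 and 12 in cashmere goats and 68.6, 56.3, 30.1 and 74.9 CPM in milk goats. The lowest values were thus month 12 in cashmere goats and month 9 in milk goats, and they were nearly equal. The ratio of cashmere to milk goats was 0.80 at month 3, 0.79 at month 6, 1.52 at month 9 and 0.40 at month 12. The exact 95% binomial intervals of the log2 ratio were 0.39 to 0.82 at month 9 and -1.54 to -1.11 at month 12, on opposite sides of 0. A test of a breed by season interaction, in a model of breed and a 12-month cycle, gave an unadjusted p of 0.143 and an adjusted p of 0.847 for NFATC1 (edgeR). The overall breed difference was -0.35 ± 0.28 SE (adjusted p = 0.450), and in the second count table it was 0.13. It was -0.032 without the cashmere library of month 12 and -0.055 without the milk library of that month, and -0.65 and -0.64 without those of month 9.

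**Figure D2:**
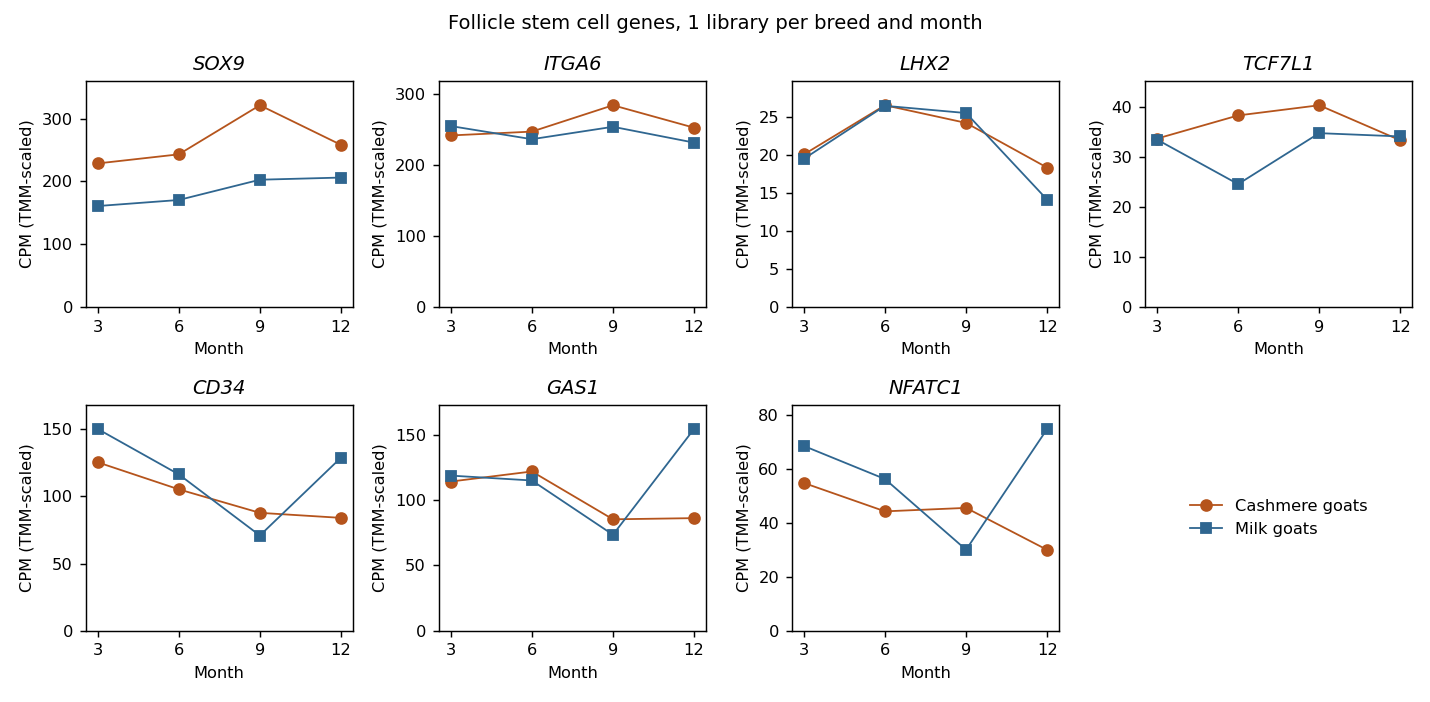
CPM (vertical axis, scaled by TMM, from 0) of the 7 genes by month (horizontal axis) in cashmere goats (orange circles) and milk goats (blue squares), 1 library per point. SOX9 runs higher in cashmere goats throughout. The breeds lie close for ITGA6 and, except at month 12 (18.3 CPM in cashmere and 14.1 in milk goats), for LHX2. CD34, GAS1 and NFATC1 have their lowest milk goat value at month 9 (70.9, 73.5 and 30.1 CPM) and a high one at month 12.

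Between the breeds, 0 of the 7 genes passed an adjusted p of 0.05 in edgeR, against 4.79% of all tested genes (675 of 14085). DESeq2 called 1 of 7, SOX9, against 12% of all genes (1691). At an unadjusted p under 0.05 in edgeR it was 1 of 7, again SOX9, against 26.9% of all genes. The median log2 fold change of the 7 was 0.07, with 4 positive and 3 negative, against 0.03 over all genes, with 52.8% positive. The 8 hair shaft keratins had a median of 1.44 with 8 positive, and 0 of them passed as well. Among the months, 0 of 7 passed in edgeR, and the count over all genes was 0, or 0%. At an unadjusted p under 0.05 in edgeR it was LHX2 alone, against 13.4% or 1894 of all genes. DESeq2 called 536 genes (3.81%) among the months and 0 of the 7. For the breed by season interaction, 0 of 7 and 0 of all genes (0%) passed in edgeR, 904 genes had an unadjusted p under 0.05, DESeq2 called 80 (0.568%), and the 7 genes had unadjusted p values of 0.143 to 0.827. These tests have 3 residual degrees of freedom, and 2 for the interaction. With 1 library of month 3, 6 or 9 left out, 0 to 4 of all genes passed between the breeds; with 1 of month 12 left out it was 869 (cashmere) or 743 (milk). SOX9 passed in none of these 8 fits. They are not 8 separate checks, since the month term absorbs the library left alone in its month. Leaving out either library of a month thus takes that month out of the breed estimate.

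The largest steps between neighbouring months differed among the 7 genes. From month 9 to month 12 in milk goats the 8 hair shaft keratins stood at a median difference of -5.19 log2 units, with 8 of 8 negative. Over that step NFATC1 stood at 1.31, GAS1 at 1.07 and CD34 at 0.86, LHX2 at -0.84, and SOX9, TCF7L1 and ITGA6 between -0.13 and 0.02. In the second count table CD34 stood at 38.5 and 58.5 CPM at these months and NFATC1 at 11.2 and 19.6 CPM, both smaller rises. SOX9 stood there at 15.2 and 8.31 CPM and ITGA6 at 230 and 157 CPM, both lower at month 12. In cashmere goats the same step was small for shaft keratins, at a median of -0.39, and lay between -0.60 for NFATC1 and 0.02 for GAS1 among the 7. From month 3 to month 6, when shaft keratins stood 1.46 higher in cashmere goats and 2.73 higher in milk goats (median log2, 8 of 8 positive in each), the 7 genes lay between -0.31 and 0.40 in cashmere goats and between -0.44 and 0.44 in milk goats. LHX2 was the highest of the 7 on that step in both breeds, at 0.40 (exact 95% binomial interval 0.11 to 0.70) and 0.44 (0.20 to 0.69). In the second count table LHX2 was lower at month 6 than at month 3 in cashmere goats (49.3 against 53.2 CPM). It was higher at month 6 in milk goats there (49.5 against 44.2 CPM). Each step compares 1 library with 1 library.

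CD34, GAS1 and NFATC1 lay close to each other over the 8 libraries. The root-mean-square difference of their log2 CPM, each centred on its own mean, was 0.18 between CD34 and GAS1, 0.20 between CD34 and NFATC1 and 0.24 between GAS1 and NFATC1, while it was 0.53 to 0.65 between any of them and SOX9. Other pairs were as near, with 0.16 between ITGA6 and TCF7L1 and 0.22 between SOX9 and TCF7L1. These pairs include genes that varied little, for which a small distance needs no shared course. The root-mean-square of a gene about its own mean was 0.08 for ITGA6, 0.20 for TCF7L1 and 0.30 for SOX9. It was 0.34 for CD34, 0.33 for GAS1 and 0.46 for NFATC1. Markers of several dermal cell types were also low at month 9 in milk goats, while those of the dermal papilla were mixed. Of 12 tested dermal papilla markers, 5 were lowest at month 9 and 6 at month 12 in milk goats, and 4 were highest at month 9. Their median centred log2 CPM there was 0.47, 0.39, 0.005 and -0.14 over the 4 months. Of 14 endothelial markers, 14 had their lowest milk goat value at month 9, and in cashmere goats 8 had it at month 12 and 6 at month 9. Their summed level was 849, 601, 415 and 351 CPM at months 3, 6, 9 and 12 in cashmere goats and 1031, 663, 358 and 761 CPM in milk goats. None of the 14 was at 0 reads in any library. Of 11 dermal fibroblast markers, 6 were lowest at month 9 and 5 at month 12 in milk goats, and 10 at month 12 in cashmere goats. Their median centred log2 CPM was 0.27, 0.70, -0.31 and -0.59 over the 4 months in cashmere goats and 0.81, 0.42, -0.60 and -0.59 in milk goats. At month 12 of milk goats the endothelial markers were thus high (0.38) and the fibroblast markers low. Of 8 tested T cell markers, cells in which NFATC1 also acts, 5 were lowest at month 9 in milk goats, with summed levels of 30.9 to 38.0 CPM in cashmere goats and 28.0 to 46.9 CPM in milk goats. Of 6 mast cell markers, 5 were lowest at month 9 in milk goats. Of 8 Schwann cell markers, a cell type with ITGA6, 6 were lowest there, while ITGA6 stood at 254 CPM in that library. Between the breeds, the endothelial factor ERG was called lower in cashmere goats (log2 fold change -0.87, edgeR adjusted p = 0.0287), 1 of 14, where 3.32% of all genes were called lower. So was the fibroblast surface protein THY1 (-0.68, adjusted p = 0.0450), 1 of 11. In the dermal papilla list these were the Wnt inhibitor WIF1 (-1.24, adjusted p = 0.0356) and the growth factor FGF7 (-0.66, adjusted p = 0.0363), 2 of 12. No T cell or mast cell marker passed (unadjusted p under 0.05 in 1 of 8 and 2 of 6). The part of these cell types in the levels of CD34, GAS1 and NFATC1 was not tested.

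**Figure D3:**
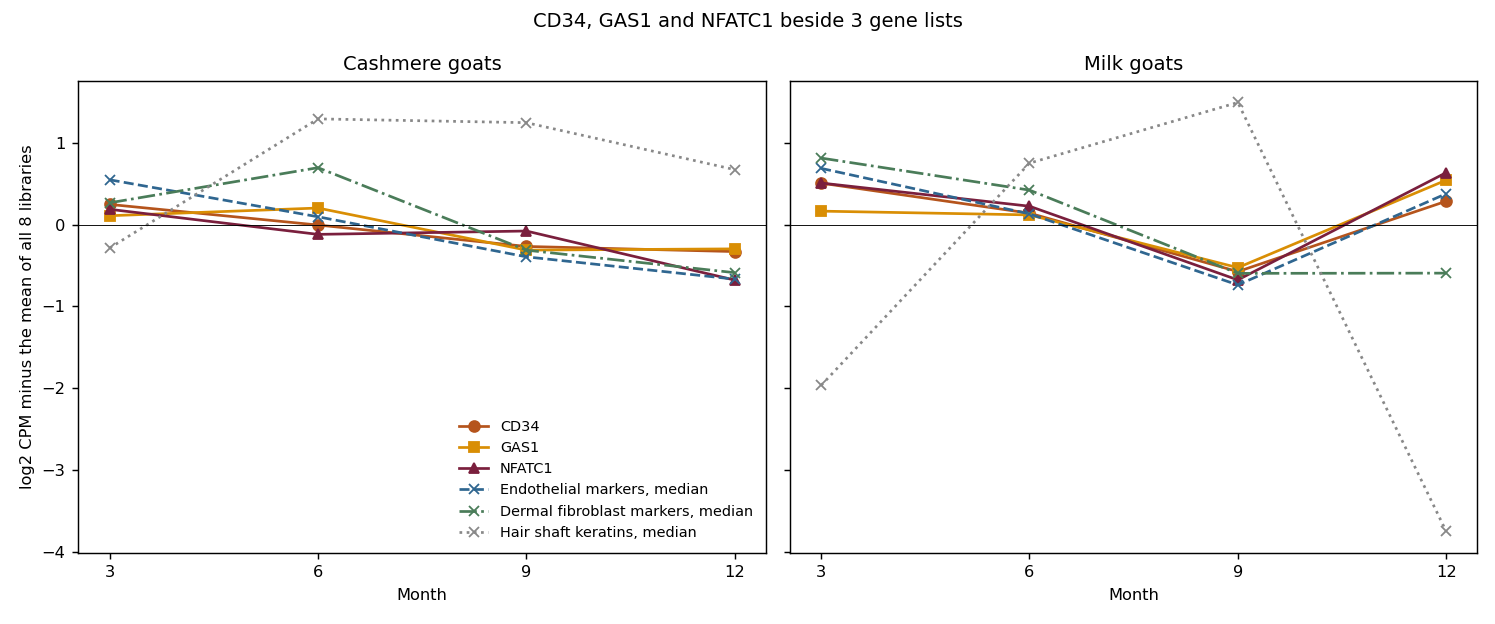
log2 CPM minus the mean of all 8 libraries (vertical axis) by month in cashmere goats (left) and milk goats (right), for CD34, GAS1 and NFATC1 (solid lines) and for the medians of endothelial markers, dermal fibroblast markers and hair shaft keratins (broken lines). Like the 3 genes, the endothelial median is lowest at month 9 in milk goats (0.69, 0.13, -0.74 and 0.38 over the 4 months), while the shaft keratin median reaches -3.75 in the milk goat library of month 12.

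Compared per length of gene, in the authors' FPKM, SOX9 had the highest mean of the 7 and NFATC1 the lowest. SOX9 averaged 40.1 ± 5.74 FPKM in cashmere goats and 24.3 ± 1.71 in milk goats (SD over 4 months), and ITGA6 28.1 ± 1.98 and 23.2 ± 3.02. CD34 followed with 23.2 ± 5.35 in cashmere goats and 23.7 ± 8.77 in milk goats, and GAS1 with 17.0 ± 3.55 and 16.8 ± 5.53. LHX2 had 11.3 ± 1.86 and 9.37 ± 2.75, TCF7L1 7.60 ± 0.706 and 5.70 ± 0.798, and NFATC1 3.85 ± 1.05 and 4.45 ± 1.76. Over the months every neighbouring pair in this order overlapped in milk goats. Compared within each milk goat library, CD34 was above GAS1, LHX2 above TCF7L1 and TCF7L1 above NFATC1 in all 4 months. The gap of LHX2 to TCF7L1 was small at month 12 (5.99 against 5.97). In cashmere goats SOX9 lay above ITGA6, GAS1 above LHX2, LHX2 above TCF7L1 and TCF7L1 above NFATC1 without overlap, while ITGA6 overlapped with CD34 and CD34 with GAS1.

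Of 21 other listed genes of the bulge and hair germ, 19 were tested. CD200, a surface protein of human bulge cells that restrains immune cells, passed the breed test and was lower in cashmere goats. It averaged 17.8 ± 5.63 CPM in cashmere goats and 29.8 ± 9.63 in milk goats (SD, 4 months; log2 fold change -0.74 ± 0.15 SE, edgeR adjusted p = 0.0450), and was lower in 4 of 4 months, as were 18.1% of all genes. It was the one gene of the list called, against 3.32% of all genes called lower, and 12 of the 19 were positive with a median of 0.09. The median range over months of the 19 was 0.71 in cashmere goats and 0.97 in milk goats. For comparison, LGR5, an R-spondin receptor of cycling stem cells, had 137 ± 26.8 CPM in cashmere goats and 88.5 ± 33.8 in milk goats (0.69 ± 0.23 SE, adjusted p = 0.120), a difference chosen for mention after its value was seen. The 12 basal keratinocyte genes had median ranges of 0.47 in cashmere goats and 0.72 in milk goats, and 0 of 12 passed between the breeds (edgeR; unadjusted p under 0.05 in 3). KRT14, the basal keratin partner of KRT5, stood at 0.18 ± 0.25 SE (adjusted p = 0.675). Of the outer root sheath keratins, only KRT6A was found by symbol of 6 listed.

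**Figure D4:**
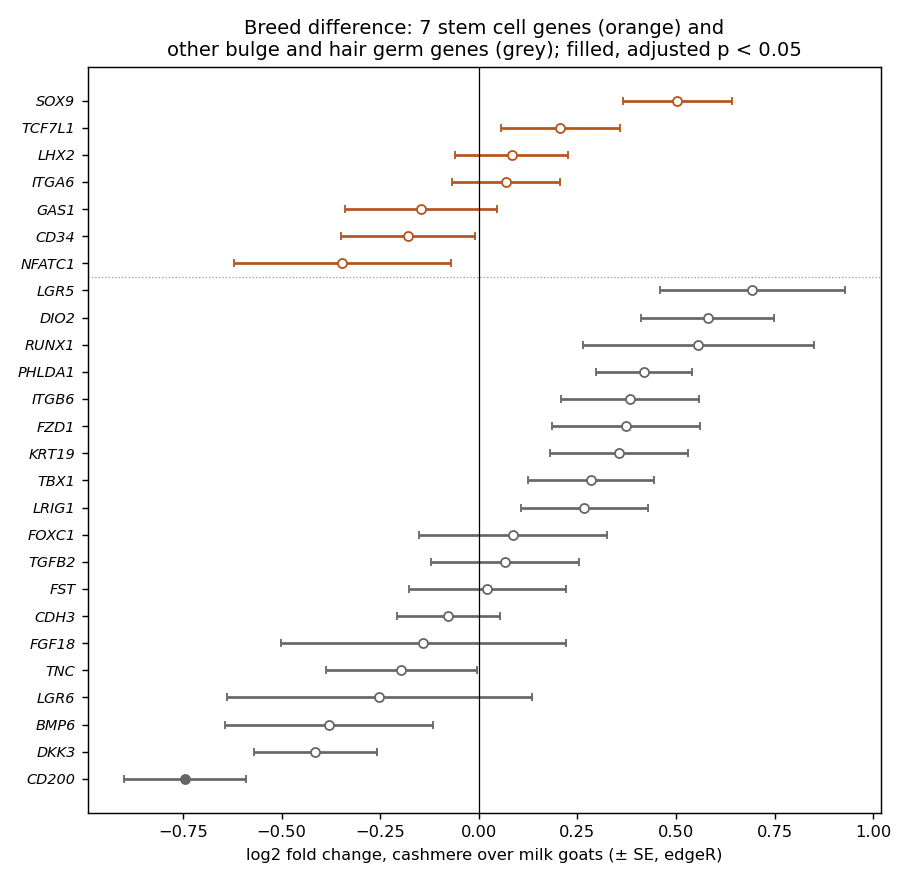
log2 fold change of cashmere over milk goats (horizontal axis, ± SE of the edgeR fit) for the 7 stem cell genes (orange, above) and 19 other bulge and hair germ genes (grey, below). Filled symbols passed an adjusted p of 0.05, which of these genes only CD200 did, at -0.74; SOX9 at 0.50 is the highest of the 7.

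Genes that act with the 7 were counted by pathway. Among the other TCF factors, beta-catenin and Groucho repressors, 0 of 7 tested passed between the breeds in edgeR (unadjusted p under 0.05 in 2). CTNNB1, beta-catenin itself, stood at 0.46 ± 0.18 SE (adjusted p = 0.163) and the co-repressor TLE3 at 0.28 ± 0.15 (adjusted p = 0.259). Their median range was 0.65 in cashmere goats and 1.11 in milk goats. LEF1, the TCF factor of the hair matrix, had the widest at 3.32 in milk goats, set beside 0.50 for TCF7L1. Of calcineurin subunits, other NFAT factors, the calcineurin inhibitor RCAN1 and CDK4, which NFATC1 represses in the mouse bulge, 0 of 9 tested passed (unadjusted p under 0.05 in 2), with RCAN1 at 0.00 ± 0.20 (adjusted p = 0.991) and PPP3R1, the regulatory subunit, at 0.18 ± 0.15 (adjusted p = 0.466). The median range of these 9 was 0.36 in cashmere goats and 0.71 in milk goats. Of 10 hedgehog receptors and targets, 0 passed (unadjusted p under 0.05 in 2). BOC, a co-receptor that acts beside GAS1, had 94.0 ± 15.3 CPM in cashmere goats and 130.4 ± 20.7 in milk goats (-0.47 ± 0.14 SE, adjusted p = 0.0881), and PTCH1, the hedgehog receptor and target, stood at 0.65 ± 0.33 (adjusted p = 0.254). Of the 10, 8 were lowest at month 12 in milk goats, the month in which GAS1 was highest there. Of 20 cell division genes, 20 had their lowest cashmere goat value at month 3. In milk goats 13 were lowest at month 12 and 7 at month 3. Between the breeds 0 of 20 passed in edgeR (unadjusted p under 0.05 in 9). Of the 7 stem cell genes in cashmere goats, 4 were lowest in CPM at month 12 and 1 at month 9. The other 2, SOX9 and ITGA6, were lowest at month 3. For both, the exact binomial interval of month 6 minus month 3 included 0 (-0.0012 to 0.18 and -0.056 to 0.12). In FPKM of the same counts SOX9 was lowest at month 6 (36.63 against 37.05 at month 3). ITGA6 was lowest there at month 12 (26.69 against 28.16).

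The genes most like each of the 7 in course were sought among 10797 tested genes with a symbol and a mean of at least 5 CPM, by the root-mean-square difference of centred log2 CPM over the 8 libraries. With so many genes and 8 points, near matches arise for any gene. MAL2 and VDAC2 were nearest to SOX9 (0.07 each), COL4A1 and ZC4H2 to LHX2 (0.10 each), and EBP and PRR14 to TCF7L1 (0.08 and 0.11). STT3B and MED7 were nearest to ITGA6 (0.03 and 0.05), CCDC149 and ITIH5 to CD34 (0.08 and 0.09), SLC45A4 and ACAP3 to GAS1 (0.09 and 0.11), and INPP1 and IFI44 to NFATC1 (0.11 each). Within the gene lists used here the nearest were PHLDA1, a bulge gene, to SOX9 (0.13), ITGB1 to ITGA6 (0.11), the basal keratinocyte factor TP63 to TCF7L1 (0.18) and the cell division gene CCNA2 to LHX2 (0.20). The root-mean-square of ITGA6 about its own mean was 0.08, below its distance from ITGB1, so a level line was nearer to it. That of TCF7L1 was 0.20, little above its distance from TP63. ITGB4 was nearest to both CD34 (0.11) and GAS1 (0.20), and the endothelial gene ESAM to NFATC1 (0.19).

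A second count table, made by the authors from the same libraries on another gene set, held 5 of the 7 genes by symbol, without TCF7L1 and GAS1. It is no independent measurement, but it counts other gene models. SOX9 had 2 entries in that table, and only the one with most reads, on chromosome 19, was used. It had 297, 313, 312 and 290 reads at months 3, 6, 9 and 12 in cashmere goats and 305, 293, 316 and 165 in milk goats. These were far fewer than in the first table. The breed difference of this entry passed (log2 fold change 0.81 ± 0.19 SE, edgeR adjusted p = 0.0414). In that fit 1117 genes were called, out of 20780 listed before filtering, against 675 called in the first table. The milk goat library of month 12 was the highest of that breed for SOX9 in the first table and the lowest in the second. The ratio of reads in the second to the first table was 0.07 for SOX9 in that library and 0.11 to 0.16 in the other 7. For CD34 it was 0.80 there and 1.04 to 1.61 in the others, for ITGA6 1.20 against 1.42 to 2.03, and for NFATC1 0.46 against 0.58 to 0.93, while LHX2 at 3.36 lay within the 3.21 to 5.27 of the others. LHX2 had 876, 707, 728 and 732 reads in cashmere goats and 1106, 1212, 1033 and 538 in milk goats, with its lowest milk goat value at month 12, as in the first table. Scaled, these were 53.2, 49.3, 51.0 and 51.0 CPM in cashmere goats, so there month 3 was the highest and month 6 the lowest, and the range was 0.11 log2 units against 0.53 in the first table. ITGA6 had 254, 209, 230 and 157 CPM in milk goats at months 3, 6, 9 and 12 in the second table, a range of 0.70 against 0.14 in the first. CD34 had the widest range of the 5 genes there, at 0.47 in cashmere goats and 1.49 in milk goats, with 0.43 and 0.80 for NFATC1. The smallest range in cashmere goats was that of LHX2, with 0.20 for ITGA6. The level of 4 of these 5 genes in the milk goat library of month 12 thus differs between the tables relative to the other libraries, and the reason was not tested.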

How the data were processed

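Per the labels, polyadenylated RNA was selected from TRIzol-extracted skin RNA and sequenced from directional paired-end libraries; the protocol text also speaks of embryos. The submitters' processing notes name Bowtie2. No version, counter or genome build is named in the sources used here. The authors deposited raw counts per gene (the table used here), FPKM (fragments by gene length and library size) of those genes, and a second table of raw counts on 20780 other gene models. Cashmere columns are named by a transliterated word for cashmere in 2 tables.

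Counts were filtered with filterByExpr, scaled by TMM and tested with edgeR 4.0.16 in R 4.3.3 in a model of month and breed, with Benjamini-Hochberg adjustment over 14085 genes and a threshold of 0.05. Month was thus the block that pairs the breeds; it comes from the labels, which give no replicate numbers. log2 CPM used a prior count of 2. The season test fitted breed by the sine and cosine of a 12-month cycle. SEs were derived from the fold change and the F value. Scripts were tested on simulated data. Within-month intervals are exact binomial (Clopper-Pearson) at 95%, and cover counting error only, since the labels name no molecular identifiers and PCR copies may be included. Alternatives were DESeq2 1.42.0, limma 3.58.1 on log2 FPKM, other scalings and filters, no month term, 1 library left out and the second table. In that table the entry with most reads was used where a symbol had several.

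The 7 genes, lists and tests were chosen with earlier results of these data known. From other lists, called genes were named (1 is not reported here), and otherwise the 2 with the highest mean CPM; others are named for a stated count or pattern, after their values were seen. No sequences were used here.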

Additional observations from a re-analysis of the deposited data

Results flagged for a closer look

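TCF7L1 in the milk goat library of month 6 stood apart from the other 3 months of that breed, at 24.6 CPM against 33.5 to 34.8. The gap to the nearest value was 0.874 of the whole range, above Dixon's 95% critical value for 4 values. It was 1 of 14 gene and breed sets checked, and chance alone gives about 1 in 20. The 4 values are different months and not replicates. The check used TMM-scaled CPM only. In the authors' FPKM of the same counts month 6 stood at 4.88, close to the 5.25 of month 9, with 6.68 and 5.97 at months 3 and 12.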

How the results depend on the processing

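No replicate numbers link the breeds; month is the replicate block, and without it 346 genes differed between the breeds in place of 675 (SOX9 0.51, adjusted p = 0.119). The other counts for the breeds were 1374 with limma on log2(FPKM + 1) (1027 higher, 347 lower), 1161 with log2(FPKM + 0.1) (841 higher, 320 lower), 1691 with DESeq2 and 1117 in the second table. In the count fit it was 207 higher and 468 lower, and 302 higher and 317 lower with library totals, which shifted the median of all genes to 0.14 from 0.03; limma shifted it to 0.16 and 0.23. Month called 0 genes and DESeq2 536. Month 9 against month 3 gave 0 and DESeq2 1107. Month 12 against month 6 gave 0, limma on log2(FPKM + 1) 9 and DESeq2 94. The season interaction gave 0, library totals 17, no filter 118 and DESeq2 80.

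Leaving out 1 library in turn gave 0 to 869 genes for breed, 0 to 1180 for month, 0 to 2027 for month 9 against month 3, 0 to 452 for month 12 against month 6 and 38 to 501 for the season interaction. The breed difference was then -0.034 to 0.15 for LHX2, -0.27 to 0.080 for GAS1, -0.34 to -0.035 for CD34, -0.65 to -0.032 for NFATC1, 0.029 to 0.29 for TCF7L1 and 0.026 to 0.12 for ITGA6. The median range of shaft keratins was 0.65 to 1.47 in cashmere goats and 3.20 to 5.24 in milk goats, and that of stem cell genes in milk goats 0.39 to 0.90.

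Signs also turned for CD34 (0.030 and 0.035 with limma, 0.31 in the second table), GAS1 (0.057 and 0.064 with limma) and NFATC1 (0.13 in the second table). SOX9 kept its sign under all 18 alternatives and passed under 4, which include limma on log2(FPKM + 0.1) at 0.71 (adjusted p = 0.0373). Each of these 4 called more genes than the 675 of the main fit, from 1117 to 1691. The other 6 genes passed under none for breed, and the 7 under none for month. The median range of shaft keratins in cashmere goats was 1.32 with library totals and 1.31 with log2(FPKM + 1). In milk goats it was 4.10 with log2(FPKM + 1) and 4.00 in the second table, the midpoint of only 2 keratins, KRT36 (5.06) and KRT86 (2.94), the last not among the 8. For stem cell genes it was 0.27 in cashmere goats in the second table and 1.08 in milk goats with log2(FPKM + 0.1). The causes were not tested. With 1 library per breed and month, the month effects within a breed have no replicate, and breed cannot be told apart from differences between the animals sampled.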
